A study of Mus musculus with 8 samples.

Results

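Transcripts of 44 genes that drive or restrain the cell cycle were examined in pharyngeal mesoderm and hearts dissected from mouse embryos that lack Isl1. The genes were chosen by their symbols, and where a symbol had several transcript entries the entry with the highest summed count was used. All 44 were found among the 20701 symbols of the table and all 44 were among the 14075 genes with enough counts to be fitted. By role they comprised 8 G1 cyclins and kinases, 14 genes of S-phase entry and replication, 14 genes of G2 and mitosis, 6 inhibitors and pocket proteins and the 2 Myc factors. The first 2 classes together are called G1/S genes here (22 genes).

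The tissue came from 4 Isl1-/- embryos and 4 wild-type embryos of the C57BL/6 strain at E8.75 (6 somites), and each library was made from the RNA of 1 embryo. Isl1, a LIM-homeodomain protein, is a transcription factor of second heart field progenitors, and the knockout removes it from the whole embryo rather than from 1 cell type. The dissected tissue is a mixture of cell types, so fewer cells of a type and less RNA per cell cannot be told apart in any value given here. Total counts over the kept entries were 23480470 to 26153039 in wild-type and 18916452 to 25047013 in knockout embryos. Isl1 itself was lower in every knockout embryo, at 1.78 to 2.40 counts per 1000000 reads (CPM, scaled by TMM) against 9.72 to 26.9 CPM in wild-type embryos (log2 fold change -3.00, edgeR FDR 0.0041). Wild-type embryos 1 to 4 were uneven for Isl1, at 9.723, 9.755, 26.88 and 23.27 CPM. Of the markers checked for the labelled tissue, all 8 cardiomyocyte and all 8 pharyngeal mesoderm genes were detected, and none of those lists held a gene at 0 in every embryo. The molecule field of the labels differs for knockout embryo 2, which is given as total RNA while the 7 others are given as polyA RNA.

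Cells enter division when D-type cyclins with Cdk4 or Cdk6, and then E-type cyclins with Cdk2, phosphorylate the retinoblastoma family of pocket proteins and release E2F transcription factors. E2F factors activate genes for licensing of replication origins, nucleotide supply and DNA synthesis, whereas the genes of G2 and mitosis are activated later, through promoter elements that include the CHR and the CCAAT box. Inhibitors of the Cip/Kip family (p21, p27 and p57) and of the Ink4 family block the kinases. In the early heart, progenitors of the second heart field divide quickly and cardiomyocytes of the heart tube are known to divide more slowly, so the comparison asks whether loss of Isl1 changed the transcripts of this machinery in the mixed tissue.

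The fitted log2 fold changes of the 44 genes, knockout over wild-type, lay between -0.40 and 0.37. The inhibitor Cdkn1c fell to 75.7% of its wild-type mean, and the other 43 genes did not pass a false discovery rate (FDR) of 0.05 in the quasi-likelihood test of edgeR adjusted over all genes fitted. This share, 1 of 44, stands beside 0.973% of all genes fitted that passed in either direction and 0.867% that passed as lower in the knockout. None of the 44 passed the thresholds of the study, a 1.5-fold difference with an unadjusted p-value under 0.05, which 3.93% of all genes passed. For 42 of 44 genes the 95% interval of the log2 fold change lay within 1.5-fold (0.58 on the log2 scale) in both directions, 95.5% beside 68.5% of all genes fitted. The exceptions were Mycn and Cdkn2c, whose intervals reached 0.70 and 0.72. Standard errors of the log2 fold changes had a median of 0.08 and ranged from 0.05 for Aurkb to 0.28 for Cdkn2c. Over all genes fitted their median was 0.12. The share of intervals within 1.5-fold depends on this precision as well as on the size of the change. Without regard to sign, the log2 fold change had a median of 0.11 for the 44 genes and 0.13 for all genes.

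**Figure D1:**
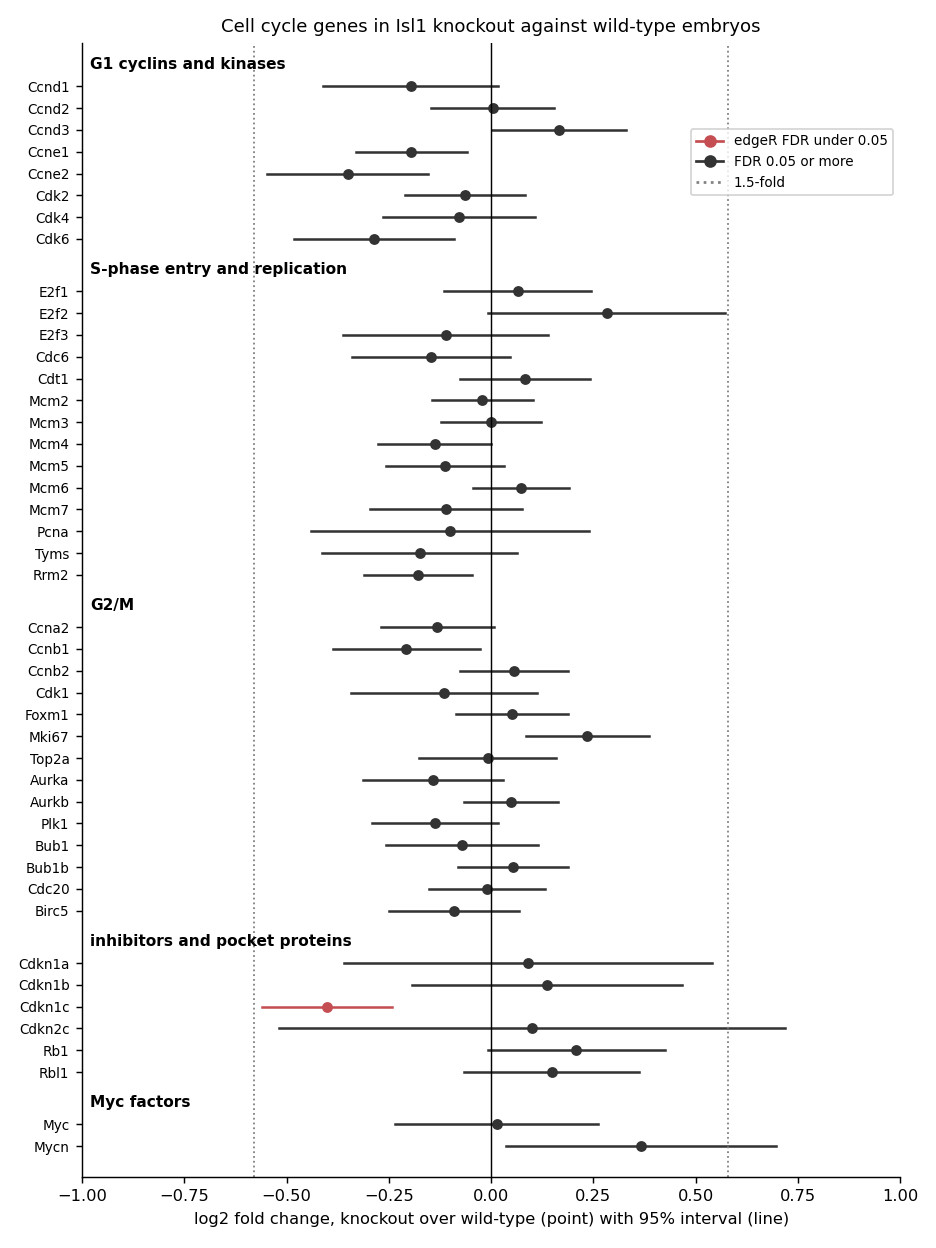
The log2 fold change of knockout over wild-type (x axis) is plotted for each of the 44 genes (y axis, in blocks by role), with points for the estimate of edgeR, lines for the 95% interval and dotted lines at 1.5-fold in either direction; n = 4 embryos per genotype. Cdkn1c, in red, is the single gene past FDR 0.05, and the points of all 44 genes lie between -0.40 and 0.37.

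At an unadjusted p-value under 0.05, 7 genes were lower and 3 were higher in the knockout, 22.7% of the 44 beside 17.4% of all genes fitted (10.1% lower and 7.37% higher). The levels of the 2 genotypes did not overlap for 7 genes, 15.9% beside 10.3% of all genes. Of these, 6 were lower in all knockout embryos (Ccne1, Ccne2, Cdk6, Mcm4, Rrm2 and Cdkn1c) and 1 was higher (Mki67); over all genes 6.33% did not overlap as lower and 3.96% as higher. The median log2 fold change was -0.04 over the 44 genes and 0.01 over all genes fitted. It was -0.11 for the 22 G1/S genes, of which 16 were lower and 6 higher, and -0.04 for the 14 G2/M genes, of which 9 were lower and 5 higher. For the 6 inhibitors and pocket proteins the median was 0.12, with 1 lower and 5 higher; it was 0.04 without wild-type embryo 1 and 0.21 without wild-type embryo 2. All of these counts of direction include genes that did not pass a test, and 48.8% of all genes fitted were lower.

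The cyclins and kinases of G1 were examined first, since they set the entry into the cycle. Of these 8 genes, 0 passed the FDR threshold with edgeR, which 0.973% of all genes fitted passed, and DESeq2 called 1, Ccne2. At an unadjusted p under 0.05 in edgeR, 3 were lower and 1 was higher, 50.0% beside 17.4% of all genes. The genotypes did not overlap for 3 of the 8, all lower, 37.5% beside 10.3% of all genes. Ccne1 and Ccne2 encode the E-type cyclins, the partners of Cdk2 at the start of S phase. Ccne2 (NM_001037134, chr4:11118498-11131926, plus strand, mm9) had 120.2, 146, 121 and 122 CPM in the wild-type group (embryos 1 to 4, an order kept throughout) and 96.5, 108, 88.3 and 107 CPM in the knockout group. Every knockout embryo was below every wild-type embryo, and wild-type embryo 2 lay above the other 3 of its group. The difference had a log2 fold change of -0.35 (SE 0.09) and did not pass the threshold (edgeR FDR 0.093); DESeq2, which called 5.04% of all genes, called it with an adjusted p of 0.0139, and over all 15 alternatives the adjusted p ranged from 0.0139 to 0.307. An exon of Ccne2 is overlapped by Ints8 on the other strand, and since reads of both strands were counted the reads of this pair cannot be told apart.

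Ccne1 (NM_007633, chr7:38883003-38892553, minus strand, mm9) followed the same order with a smaller difference. It stood at 135, 123, 131 and 126 CPM in wild-type and at 114, 121, 111 and 104 CPM in knockout embryos. The highest knockout embryo was just under the lowest wild-type embryo, and the log2 fold change of -0.20 (SE 0.06) did not pass the threshold (edgeR FDR 0.153). Per length of transcript, Ccne1 was the more abundant E-type cyclin in both genotypes, at 38.6 ± 1.70 reads per kilobase and per 1000000 reads (RPKM) against 23.8 ± 2.10 RPKM for Ccne2 in wild-type embryos (SD, n = 4). Their kinase Cdk2 was at 107 ± 7.203 CPM in wild-type and 102 ± 5.10 CPM in knockout embryos, with overlapping values and a 95% interval of the log2 fold change from -0.21 to 0.08.

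Cdk6, a kinase partner of the D-type cyclins, was the third G1 gene whose genotypes did not overlap. Its levels were 29.5, 35.2, 31.7 and 36.3 CPM in wild-type and 27.0, 25.8, 27.0 and 29.0 CPM in knockout embryos, and knockout embryo 4 lay close under wild-type embryo 1. With a log2 fold change of -0.29 (SE 0.09) it did not pass the threshold (edgeR FDR 0.147). By level per length, the other kinase of this step, Cdk4, carried nearly all of the kinase transcripts. It was 221 to 311 times as abundant as Cdk6 in the 8 embryos. Cdk6 made up 0.40% of the sum of both in wild-type and 0.35% in knockout embryos on average. These values per length rest on entries of unlike length, 1336 bases for Cdk4 and 11512 bases for Cdk6. Cdk4 itself was at 963 ± 102 CPM in wild-type and 912 ± 44.3 CPM in knockout embryos, and its 95% interval of the log2 fold change ran from -0.26 to 0.11. Exons of Cdk4 and Cdk6 are overlapped on the other strand by Tspan31 and by the gene model Gm17590.

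The 3 D-type cyclins, which link growth signals to the cycle, were all expressed at like levels per length. Ccnd2 made up 37.8% of their summed RPKM in wild-type and 37.7% in knockout embryos on average, Ccnd3 33.4% in wild-type and 37.3% in knockout, and Ccnd1 28.8% and 25.0%; the ranges over embryos overlapped for each. Ccnd1 was at 292, 253, 315 and 307 CPM in wild-type and at 292, 258, 222 and 245 CPM in knockout embryos. Knockout embryo 3 had the lowest value of Ccnd1, and knockout embryo 1 was as high as the wild-type group (log2 fold change -0.20, SE 0.10, edgeR FDR 0.326). Ccnd3 was at 188 ± 10.5 CPM in wild-type and 211 ± 19.0 CPM in knockout embryos, where knockout embryo 2 had the highest value, 239 CPM (log2 fold change 0.17, SE 0.07, edgeR FDR 0.283; 0.105 without that embryo). Ccnd2 was at 581 ± 32.9 and 582 ± 35.7 CPM, with a 95% interval of the log2 fold change from -0.15 to 0.15. Each of Ccnd1 and Ccnd3 shares exon sequence with a gene of the other strand, Oraov1 and Bysl.

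**Figure D2:**
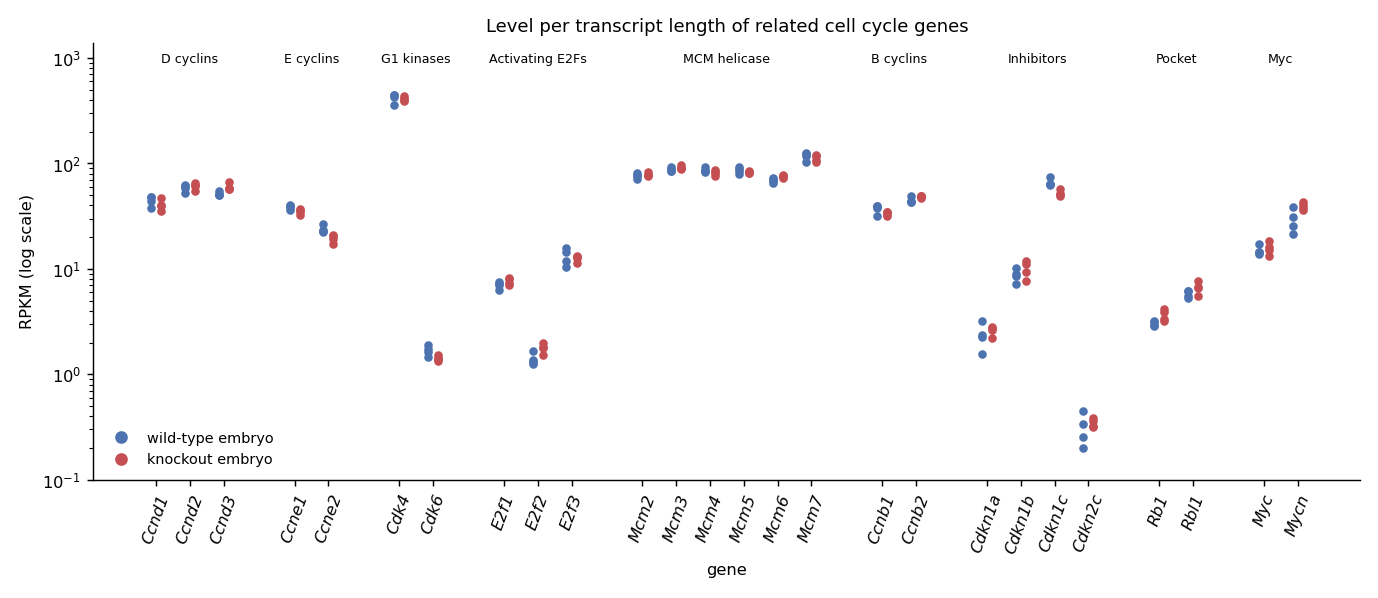
Levels per transcript length (RPKM, log scale on the y axis) are plotted for 26 related genes of 9 families (x axis), with 1 point per embryo in blue for wild-type and red for knockout (n = 4 each). Cdk4 lies far above Cdk6, Cdkn1c far above the other inhibitors, and the 6 subunits of the MCM helicase lie close together.

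Among the 14 genes of S-phase entry and replication, 0 passed the threshold with edgeR and 0 with DESeq2, 2 had an unadjusted p under 0.05 and 10 of 14 had a log2 fold change below 0. Over all genes fitted, 0.973% passed with edgeR and 5.04% with DESeq2. An unadjusted p under 0.05 was found for 14.3% of the 14 genes, beside 17.4% of all genes. A log2 fold change below 0 was found for 71.4%, beside 48.8% of all genes. The E2F factors and the licensing genes had values of both signs. E2f2, the least abundant of the 3 activating E2F factors, was at 14.1, 11.7, 10.4 and 10.64 CPM in wild-type and 15.9, 14.8, 12.3 and 14.1 CPM in knockout embryos, and wild-type embryo 1 lay within the knockout range (log2 fold change 0.28, SE 0.13, edgeR FDR 0.299). E2f1 and E2f3 had log2 fold changes of 0.06 (SE 0.08) and -0.11 (SE 0.11) with overlapping values. E2f3 held 60.6% of the summed RPKM of the 3 genes in wild-type and 57.2% in knockout embryos. Cdc6 and Cdt1, which load the MCM helicase onto origins, had log2 fold changes of -0.15 (SE 0.09) and 0.08 (SE 0.07).

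The MCM genes encode the 6 subunits of the replicative helicase, Mcm2 to Mcm7. Their transcripts were close to each other per length: within an embryo the most abundant subunit exceeded the least abundant by 1.37 to 1.91 times. Mcm7 had the highest level, 117 ± 9.97 RPKM in wild-type and 113 ± 7.89 RPKM in knockout embryos, and Mcm6 the lowest, 69.4 ± 3.37 and 75.9 ± 2.61 RPKM. Exons of Mcm7 are overlapped by Ap4m1 and Cops6 on the other strand and hold the microRNAs Mir25 and Mir93. Mcm4 was at 576, 521, 518 and 520.1 CPM in wild-type and at 504, 492, 454 and 492 CPM in knockout embryos. Its genotypes did not overlap, wild-type embryo 1 stood above the other 3, and the log2 fold change of -0.14 (SE 0.06) did not pass the threshold (edgeR FDR 0.286). Mcm6 had the opposite sign at 523, 506, 540 and 538 CPM in wild-type and 567, 537, 563 and 549 CPM in knockout embryos (log2 fold change 0.07, SE 0.05, edgeR FDR 0.503). The values of Mcm6 overlapped between genotypes, while its share of the summed RPKM of the 6 subunits did not, at 12.6% to 14.10% in wild-type and 14.12% to 14.8% in knockout embryos. The 2 ranges nearly touched, and the shares of Mcm2, Mcm3, Mcm4, Mcm5 and Mcm7 overlapped. In level, 10.3% of all genes fitted did not overlap. Mcm2, Mcm3, Mcm5 and Mcm7 had log2 fold changes of -0.02, -0.0009, -0.11 and -0.11, and for Mcm3 the 95% interval ran from -0.12 to 0.12.

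Rrm2 encodes the regulated subunit of ribonucleotide reductase, which makes the deoxynucleotides for DNA synthesis. It was at 449, 466, 477 and 461 CPM in wild-type and at 434, 416, 377 and 410.2 CPM in knockout embryos, with knockout embryo 3 lowest and no overlap. The log2 fold change was -0.18 (SE 0.06) and did not pass the threshold (edgeR FDR 0.175). Tyms, the thymidylate synthase, was at 124 ± 17.7 CPM in wild-type and 110 ± 10.5 CPM in knockout embryos with overlapping values; an exon is overlapped by a gene model of the other strand, Gm17448. Pcna, the sliding clamp of the DNA polymerases, varied most among the replication genes in wild-type embryos (coefficient of variation 24.4%, and 3.03% in knockout embryos), at 338, 377, 206 and 289 CPM in wild-type and 274, 278, 294 and 280.5 CPM in knockout embryos. The 4 knockout embryos lay within the wild-type range, whose extremes were wild-type embryos 2 and 3, and the log2 fold change was -0.10 with an SE of 0.15 (edgeR FDR 0.773).

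Promoter sequences of RefSeq (GRCm38.p6; 250 bases before to 50 bases after the transcription start) matched 34 of the 44 symbols and 13 of the 14 replication genes. Letters of 4 E2F words were searched on both strands, TTTCCCGC, TTTGGCGC, TTTCGCGC and TTTGCCGC, which can overlap one another. At least 1 was found in 8 of these 13 genes (Cdc6, Cdt1, E2f2, E2f3, Mcm3, Mcm5, Mcm6 and Mcm7, any listed start). Of 32851 single promoters, a set from which 1 chromosome was left out, 2.27% held such a word. The units differ, since E2f2, E2f3 and Mcm7 have 2 listed starts each, of which 1 held a word. The 250 bases before the start are shown for Mcm6 and Mcm5, 2 subunits whose transcripts stayed within 1.5-fold, to let the E2F words of replication genes be seen; capitals mark E2F words and CCAAT boxes (CCAAT or ATTGG), and where 2 E2F words overlap the capitals run on. Mcm6 lies at chr1:128359706-128359955, minus strand, and Mcm5 at chr8:75109259-75109508, plus strand.
Mcm6: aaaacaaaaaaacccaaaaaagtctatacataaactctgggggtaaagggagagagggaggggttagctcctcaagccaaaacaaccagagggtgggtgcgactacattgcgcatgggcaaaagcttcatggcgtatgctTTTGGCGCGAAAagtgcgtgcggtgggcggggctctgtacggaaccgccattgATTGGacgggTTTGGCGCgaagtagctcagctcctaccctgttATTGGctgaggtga
Mcm5: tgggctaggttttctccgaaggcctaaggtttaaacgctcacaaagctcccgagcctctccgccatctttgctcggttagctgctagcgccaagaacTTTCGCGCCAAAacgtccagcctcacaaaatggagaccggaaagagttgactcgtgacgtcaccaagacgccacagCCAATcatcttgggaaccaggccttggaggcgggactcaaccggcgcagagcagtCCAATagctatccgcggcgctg
The overlapping pair in Mcm6 begins 110 bases and the third E2F word 47 bases before the start, and the pair in Mcm5 begins 153 bases before it. These words are a description of the letters, not of binding.

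Of the 14 genes of G2 and mitosis, 0 passed the threshold with edgeR, 2 had an unadjusted p under 0.05 and 1, Mki67, was called by DESeq2. The share at an unadjusted p under 0.05 was 14.3%, beside 17.4% of all genes fitted, and DESeq2 called 5.04% of all genes. Mki67 was also the one whose genotypes did not overlap, 7.14% of the 14 beside 10.3% of all genes. Mki67 encodes Ki-67, a protein of the mitotic chromosome surface that is widely used as a mark of dividing cells. It (NM_001081117, chr7:142881471-142908062, minus strand, mm9) was at 937, 945, 1023 and 1102 CPM in wild-type and at 1136, 1165, 1201 and 1214 CPM in knockout embryos. All knockout embryos were above all wild-type embryos, with wild-type embryo 4 close under them. The mean of the knockout group was 118% of the wild-type mean, a log2 fold change of 0.24 (SE 0.07, edgeR FDR 0.130), and DESeq2 gave an adjusted p of 0.0185, in a range of 0.0185 to 0.351 over the alternatives. With 21318 to 29393 reads per library this was among the most deeply counted of the 44 genes.

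Of the other mitotic genes, 9 had a log2 fold change below 0 and 4 above 0. Top2a, the topoisomerase that separates replicated chromosomes and like Ki-67 a usual mark of dividing cells, was at 1275, 1304, 1119 and 1266 CPM in wild-type and at 1224, 1125, 1340.0 and 1244 CPM in knockout embryos. The highest value belonged to knockout embryo 3 and the lowest to wild-type embryo 3, and the 95% interval of the log2 fold change ran from -0.18 to 0.16. Ccnb1, a B-type cyclin that activates Cdk1 for mitosis, was at 158, 161, 126 and 145 CPM in wild-type and at 130.4, 129, 132 and 120.2 CPM in knockout embryos. Wild-type embryo 3 lay within the knockout range, and the log2 fold change of -0.21 (SE 0.08) did not pass the threshold (edgeR FDR 0.229). Without wild-type embryo 3 the log2 fold change of Ccnb1 was -0.28 (edgeR FDR 0.0421), in a range of adjusted p of 0.0421 to 0.476 over the alternatives, and in that comparison 3.46% of all genes passed. Ccnb2, the other B-type cyclin, was at 118 ± 8.20 CPM in wild-type and 123 ± 1.85 CPM in knockout embryos (log2 fold change 0.06, SE 0.06). The share of Ccnb1 in the summed RPKM of both B-type cyclins was 42.4% to 47.9% in wild-type and 39.2% to 41.6% in knockout embryos, which did not overlap. All shares overlapped within the D-type cyclins, the E-type cyclins, Cdk4 and Cdk6, the activating E2F factors, the pocket proteins and the Myc factors.

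Cdk1, the kinase that drives mitosis, was at 296 ± 37.6 CPM in wild-type and 273 ± 27.7 CPM in knockout embryos, and its values overlapped (log2 fold change -0.12, SE 0.10). Ccna2, which pairs with Cdk2 and Cdk1, was at 471, 481, 411 and 464 CPM in wild-type and at 420.0, 421, 408 and 418 CPM in knockout embryos. The low value of wild-type embryo 3 fell among the knockout embryos (log2 fold change -0.13, SE 0.06, edgeR FDR 0.310), and an exon of Ccna2 is overlapped by Exosc9 on the other strand. Of the mitotic kinases, Aurka and Plk1 had log2 fold changes of -0.14 (SE 0.08) and -0.14 (SE 0.07) and Aurkb 0.05 (SE 0.05), all with overlapping values. The checkpoint genes Bub1 and Bub1b, the activator of the anaphase-promoting complex Cdc20, the chromosomal passenger Birc5 and the transcription factor Foxm1 had log2 fold changes from -0.09 to 0.05, and none had an FDR under 0.05. An exon of Cdc20 is overlapped by Elovl1 on the other strand.

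The CHR, searched as TTTGAA, and the CCAAT box, searched as CCAAT, were looked for on both strands of the same promoters. Of the 11 G2/M genes with a RefSeq promoter, 8 held a CHR and 10 held a CCAAT box, beside 17.9% and 37.4% of the same set of single promoters. Of the 13 genes of S-phase entry and replication with such a promoter, 3 held a CHR and 9 held a CCAAT box. Cdk1 and Mki67 are shown because both hold the 2 elements while their log2 fold changes had opposite signs, -0.12 and 0.24; capitals mark CCAAT boxes, CHR words and, in Cdk1, 1 E2F word. The 250 bases before the start lie at chr10:69352913-69353162, minus strand, for Cdk1 and at chr7:135716380-135716629, minus strand, for Mki67 (GRCm38.p6).
Cdk1: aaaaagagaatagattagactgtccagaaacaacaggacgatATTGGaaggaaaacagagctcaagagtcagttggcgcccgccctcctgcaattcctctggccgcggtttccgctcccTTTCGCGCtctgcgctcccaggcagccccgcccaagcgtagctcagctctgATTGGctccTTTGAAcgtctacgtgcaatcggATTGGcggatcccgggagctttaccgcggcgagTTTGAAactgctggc
Mki67: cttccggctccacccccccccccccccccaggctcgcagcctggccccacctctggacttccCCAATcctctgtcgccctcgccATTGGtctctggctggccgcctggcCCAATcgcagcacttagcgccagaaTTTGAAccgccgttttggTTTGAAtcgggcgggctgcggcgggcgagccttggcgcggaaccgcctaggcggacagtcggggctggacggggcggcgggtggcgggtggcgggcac
The CHR words begin 71 and 15 bases before the start in Cdk1 and 116 and 98 bases before it in Mki67. Neither difference of expression passed the FDR threshold.

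Among the inhibitors, Cdkn1c was the one gene of the 44 past FDR 0.05. It encodes p57, a Cip/Kip inhibitor that is expressed from the maternal chromosome and is known for high levels in embryonic cells that leave the cycle. Cdkn1c (NM_001161624, chr7:150644255-150646955, minus strand, mm9) was at 215, 218, 246 and 202 CPM in wild-type and at 180, 166, 159 and 162 CPM in knockout embryos. All knockout embryos were below all wild-type embryos, and wild-type embryo 3 had the highest value. Means and SD over the 4 embryos were 220.2 ± 18.4 and 167 ± 9.16 CPM, and the log2 fold change was -0.40 (SE 0.07, 95% interval -0.56 to -0.24, edgeR FDR 0.0310). Ranked by p-value it was number 101 of 14075 genes. By exact permutation of the embryos (two-sided) p was 0.0286, the smallest value that 4 against 4 can reach. This value follows from the lack of overlap and adds nothing to it. It was the same for every gene of the 44 whose genotypes did not overlap.

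**Figure D3:**
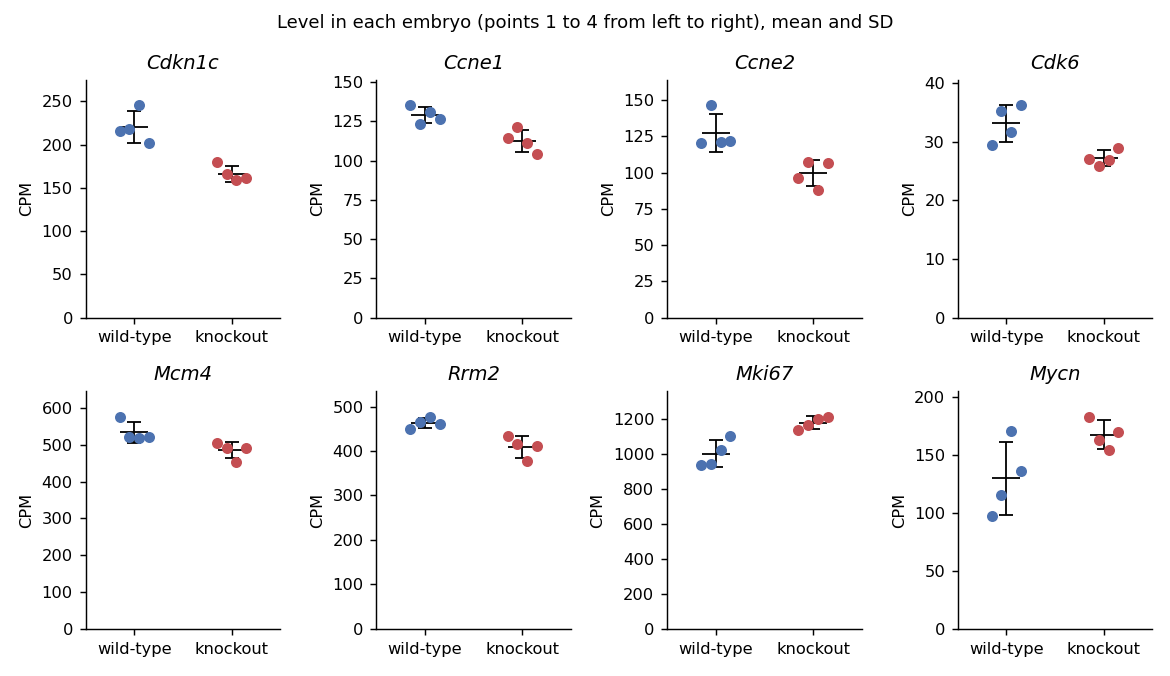
Levels in CPM (y axis, from 0) are plotted for Cdkn1c, the 6 other genes whose genotypes did not overlap, and Mycn, with 1 point per embryo (1 to 4 from left to right) and black marks for the mean and SD of each genotype (x axis). Cdkn1c lies at 159 to 180 CPM in the knockout and 202 to 246 CPM in the wild-type embryos, and for Mycn the wild-type embryos spread from 97.7 to 171 CPM.

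The direction of Cdkn1c held in every alternative, with log2 fold changes from -0.44 to -0.34, but its call did not. The adjusted p ranged from 0.000108 with DESeq2 to 0.144 with the presence of Y-linked reads as a covariate, and it was 0.0669 with limma on log2(RPKM + 1). Leaving out 1 embryo gave an edgeR FDR of 0.0976 without wild-type embryo 1, 0.0871 without wild-type embryo 2, 0.0702 without knockout embryo 2, 0.0859 without knockout embryo 3 and 0.123 without knockout embryo 4, and between 0.0223 and 0.0475 without each of the other 3. Y-linked reads were present in wild-type embryo 4 and in knockout embryos 1, 3 and 4. Within the embryos with such reads Cdkn1c was at 202 CPM in the wild-type embryo and at 159 to 180 CPM in the knockout embryos, and within those without them at 215 to 246 CPM against 166 CPM.

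Markers of heart muscle were lower in the same embryos. All 8 cardiomyocyte markers were lower in every knockout than in every wild-type embryo, and 7 of them passed FDR 0.05; their log2 fold changes had a median of -1.002. Their summed level was 4294, 4212, 2881 and 3906 CPM in wild-type and 2019, 1521, 2323 and 1763 CPM in knockout embryos. Summed levels of the pharyngeal mesoderm, erythroid, endothelial, endoderm and neural lists overlapped between genotypes. Of the 8 pharyngeal mesoderm genes, 2 were lower without overlap, Isl1 among them (25.0%, beside 10.3% of all genes fitted). At an unadjusted p under 0.05 in edgeR, 2 were lower and 1 was higher (37.5%, beside 17.4%). Their log2 fold changes ran from -3.00 for Isl1 to 0.98 for Tbx1. The erythroid sum was 370.4 CPM in wild-type embryo 3 and 1175 to 2367 CPM in the other wild-type embryos. The part of these cell types in the levels of the cell cycle genes was not tested.

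Cdkn1c was also the most abundant inhibitor. Per length it was at 66.1 ± 5.48 RPKM in wild-type and 52.0 ± 3.23 RPKM in knockout embryos, against 8.754 ± 1.22 and 10.03 ± 1.89 RPKM for Cdkn1b and 2.34 ± 0.670 and 2.60 ± 0.266 RPKM for Cdkn1a. Its share of the summed RPKM of the 3 Cip/Kip genes was 82.7% to 88.7% in wild-type and 77.6% to 82.4% in knockout embryos. Cdkn1a, which encodes p21 and is a target of p53, was at 5.30, 10.9, 7.46 and 7.64 CPM in wild-type and at 7.04, 8.498, 9.04 and 8.76 CPM in knockout embryos. The knockout embryos lay inside the wild-type range, whose extremes were wild-type embryos 1 and 2 (log2 fold change 0.09, SE 0.20). Cdkn1b, which encodes p27, was at 37.6, 43.0, 29.6 and 34.8 CPM in wild-type and 43.5, 37.8, 30.8 and 47.2 CPM in knockout embryos, again with overlap (log2 fold change 0.14, SE 0.15). Cdkn2c, an Ink4 inhibitor of Cdk4 and Cdk6, had 17 to 36 reads per library and about 1 CPM in both genotypes, and its 95% interval ran from -0.52 to 0.72.

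The pocket proteins Rb1 and Rbl1, which hold E2F factors back, were low per length and higher on average in the knockout. Rb1 was at 25.7, 23.1, 23.1 and 24.2 CPM in wild-type and at 29.5, 25.95, 24.3 and 31.3 CPM in knockout embryos, with knockout embryo 3 within the wild-type range. It did not pass the threshold (log2 fold change 0.21, SE 0.10, edgeR FDR 0.303), and exons are overlapped by Lpar6 and Rcbtb2 on the other strand. Rbl1 had a log2 fold change of 0.15 (SE 0.10, edgeR FDR 0.455), and its lowest value of the 8 was in knockout embryo 3.

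The Myc factors drive growth and proliferation, and Mycn is known to be needed in the embryonic heart. Mycn was at 97.7, 116, 171 and 136 CPM in wild-type and at 184, 163, 154 and 170.4 CPM in knockout embryos. Wild-type embryo 3 lay among the knockout embryos and the other 3 wild-type embryos were below all of them. The log2 fold change was 0.37 (SE 0.15) and did not pass the threshold (edgeR FDR 0.243). Without wild-type embryo 3 it was 0.53 (edgeR FDR 0.0383), a comparison in which 3.46% of all genes passed, beside 0.973% with all 8 embryos. Over the alternatives the adjusted p of Mycn ranged from 0.0383 to 0.476. Myc was at 61.8 ± 6.50 CPM in wild-type and 62.3 ± 8.753 CPM in knockout embryos, with a 95% interval of the log2 fold change from -0.23 to 0.26. Per length Mycn was the more abundant factor, with 61.0% to 68.9% of the sum of both in wild-type and 67.2% to 74.3% in knockout embryos.

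The promoter of Mycn is shown because it holds 3 E2F words, of which 2 overlap, and 1 CHR word. The 250 bases before the start lie at chr12:12941837-12942086, minus strand (GRCm38.p6), and capitals mark these words.
Mycn: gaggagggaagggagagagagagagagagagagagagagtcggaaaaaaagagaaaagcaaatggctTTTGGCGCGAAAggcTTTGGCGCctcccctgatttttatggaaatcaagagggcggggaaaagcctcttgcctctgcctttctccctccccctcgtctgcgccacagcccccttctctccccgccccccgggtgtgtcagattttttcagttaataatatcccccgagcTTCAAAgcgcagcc
The E2F words begin 183, 179 and 168 bases and the CHR word, on the other strand as TTCAAA, 14 bases before the start.

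The spread between embryos of 1 genotype was then set beside these differences. The coefficient of variation over wild-type embryos had a median of 7.33% for the 44 genes and 11.4% for all genes fitted, and over knockout embryos it was 6.27% and 10.2%. Rrm2, at 2.56%, varied least among wild-type embryos, and Cdkn2c, Cdkn1a, Pcna and Mycn varied most, at 35.8%, 29.6%, 24.4% and 24.2%. Wild-type embryo 3 had the lowest of the 8 values for 10 of the 44 genes and the highest for 8. Knockout embryo 3 had the lowest value for 9 genes and knockout embryo 4 for 7, and wild-type embryo 2 had the highest value for 11. Set against the wild-type mean of each gene, the median over the 22 G1/S genes was -0.05 on the log2 scale in wild-type embryo 3 and -0.02 to -0.09 in the knockout embryos. Over the 14 G2/M genes it was -0.09 in wild-type embryo 3, below all 4 knockout embryos (-0.06 to 0.02).

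**Figure D4:**
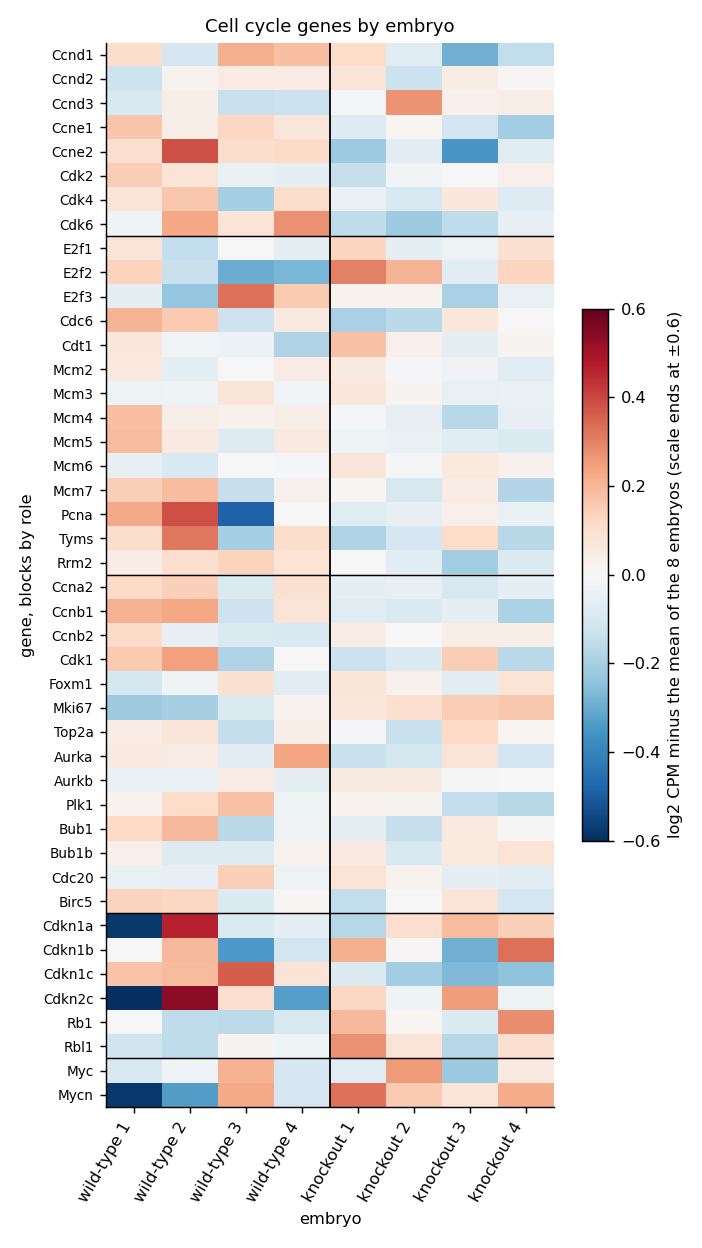
Each cell is the log2 CPM of 1 gene (rows, in blocks by role) in 1 embryo (columns) minus the mean of that gene over the 8 embryos, from blue (lower) to red (higher), with the colour scale ending at 0.6 in both directions. Cdkn1c, Ccne1, Ccne2, Cdk6, Mcm4 and Rrm2 are higher in every wild-type column than in any knockout column, and the column of wild-type embryo 3 holds both low values, such as Pcna, and high ones, such as Cdkn1c.

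Summed over the 22 G1/S genes, the level was 6752, 6763, 6304 and 6648 CPM in wild-type and 6461, 6242, 6297 and 6187 CPM in knockout embryos. Knockout embryo 1 lay above wild-type embryo 3, so the genotypes overlapped. Summed over the 14 G2/M genes it was 4880.0, 4950.0, 4581 and 4939 CPM in wild-type and 4842, 4729, 5085 and 4907 CPM in knockout embryos, with the extremes in the third embryo of each genotype. For the 6 inhibitors and pocket proteins, the sum was 319 to 358 CPM in wild-type and 270 to 322 CPM in knockout embryos, and most of it was Cdkn1c.

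Other genes of the same pathways, outside the 44, were taken from 4 lists. Of the 108 genes of these lists that were fitted, 10.2% had an unadjusted p under 0.05, beside 17.4% of all genes fitted. In the knockout 68.5% were lower, beside 48.8% of all genes, and DESeq2 called 5.04% of all genes. Of 36 further replication genes, 26 were lower, 10 were higher and 0 passed the FDR threshold of edgeR; 4 had an unadjusted p under 0.05 and DESeq2 called 1, Pole. The smallest p-values belonged to Rfc3, a clamp-loader subunit, as lower (log2 fold change -0.23, SE 0.09, edgeR FDR 0.239) and to Pole, the catalytic subunit of DNA polymerase epsilon, as higher. Pole was at 192 to 218 CPM in wild-type and 225 to 253 CPM in knockout embryos, without overlap (log2 fold change 0.22, SE 0.06, edgeR FDR 0.126; DESeq2 adjusted p 0.0349). Of 40 further mitotic genes, 26 were lower, 14 were higher and 0 passed with edgeR or DESeq2, with 2 at an unadjusted p under 0.05. Among them Smc2, a condensin subunit, was at 361 to 424 CPM in wild-type and 341 to 353 CPM in knockout embryos (log2 fold change -0.19, SE 0.06, edgeR FDR 0.168), and Cdc25b, a phosphatase that activates Cdk1, had a log2 fold change of 0.27 (SE 0.12, edgeR FDR 0.305).

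Of 20 further inhibitors and genes of quiescence, 17 were fitted, and 10 were lower, 7 higher and 0 past the threshold with edgeR or DESeq2, with 3 at an unadjusted p under 0.05. Lin9, a subunit of the complex that represses or activates cell cycle genes, had a log2 fold change of -0.25 (SE 0.08, edgeR FDR 0.148) and Gas1, a gene of growth arrest, 0.35 (SE 0.14, edgeR FDR 0.228). The 3 genes not fitted were Cdkn2a, Cdkn2b and Cdkn2d, at 2 to 25, 1 to 6 and 4 to 15 reads per library. Of 16 p53 targets, 15 were fitted, and 12 were lower, 3 higher and 0 past the threshold with either tool, with 2 at an unadjusted p under 0.05; Gdf15 was not fitted, at 0 to 6 reads. Btg2, an antiproliferative p53 target, was at 59.1, 64.6, 12.9 and 13.3 CPM in wild-type and at 14.96, 15.2, 14.2 and 14.5 CPM in knockout embryos. Its log2 fold change of -1.35 (SE 0.50, edgeR FDR 0.213) rested on wild-type embryos 1 and 2, since embryos 3 and 4 were below every knockout embryo. Sesn1 had the smallest p-value among the higher p53 targets (log2 fold change 0.14, SE 0.11, edgeR FDR 0.538).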

How the data were processed

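RNA of single embryos was sequenced by the authors from libraries of 100 ng of RNA, and reads were mapped with STAR to mm9 (introns of 20 to 500000 bases). The deposited count values are raw reads per RefSeq transcript, which the authors counted over exons on both strands with HOMER; how reads shared by near-identical copies were counted is not given in the sources used here. The deposited RPKM values were computed by the authors with edgeR from those counts and the deposited transcript lengths in bases (no normalization). Deposited columns of the authors' own comparison (DESeq2 mean, fold change, error, statistic and p-values) were not used. Versions of these programs are not given in the sources used here.

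Of 31507 transcript entries, a single one was used for each symbol, chosen by its highest summed count; 18 of the 44 genes had more than 1 entry, and for Cdkn1a and Myc several entries had identical counts. Counts were fitted in R 4.3.3 with edgeR 4.0.16 (filterByExpr, TMM, quasi-likelihood, genotype as the single term), with two-sided p-values adjusted by Benjamini-Hochberg over 14075 genes (FDR). CPM are TMM-scaled counts per 1000000 reads. DESeq2 1.42.0, limma 3.58.1 on log2(RPKM + 1) and other alternatives are given in the closing section. The code of the fit was run on counts simulated with its own fitted dispersions, which does not test the calls given here. Single values were compared by exact permutation over embryos with scipy 1.17.1. Tables and plots were made in Python 3.11.15 with pandas 2.3.3, numpy 2.4.6 and matplotlib 3.10.9. Gene coordinates are from GENCODE vM1 on mm9 and promoters from RefSeq on GRCm38.p6; positions of the 2 builds were not mixed.

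Genotypes and replicate numbers came from the sample titles; the count columns call the wild-type group control. Reads carry no molecular identifiers, so counting precision covers counting error only. The p-values of edgeR set a difference against the spread between single embryos, which edgeR estimates in part from all genes fitted. Named genes were all 44, Isl1 and, in each list of other pathway genes, the gene with the smallest p-value in each direction and any gene past FDR 0.05. The 44 genes, the lists and the alternatives were chosen with earlier results of these data known.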

Additional observations from a re-analysis of the deposited data

Results flagged for a closer look

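For the 44 genes and the other named genes, 106 groups of 4 embryos were examined for 1 embryo standing apart from the other 3 (Dixon's criterion at 95%), and 7 were found; chance alone gives about 1 in 20 groups. Wild-type embryo 2 had 146.5 CPM of Ccne2 against 120.2 to 121.6 CPM in the other wild-type embryos, and wild-type embryo 1 had 576.5 CPM of Mcm4 against 517.7 to 520.8 CPM. Wild-type embryo 3 stood above its group for Mcm3 (457.2 CPM against 425.4 to 429.9 CPM), Aurkb (109.1 CPM against 101.0 to 102.2 CPM) and Cdc20 (195.0 CPM against 170.8 to 173.0 CPM). Knockout embryo 2, whose molecule label differs from the others, had 120.3 CPM of Ccnb2 against 123.8 to 124.2 CPM, and knockout embryo 3 had 170.8 CPM of Aurka against 147.1 to 150.0 CPM.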

How the results depend on the processing

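The count of genes past the FDR threshold was 1 of 44 with edgeR and depended on the processing. It was 3 with the DESeq2 Wald test (Cdkn1c, Ccne2 and Mki67; 709 genes in all against 137), 0 with the Y-linked covariate (where Cdkn1c had a log2 fold change of -0.36), 0 with limma on log2(RPKM + 1) and 0 to 3 when 1 embryo was left out, the 3 without wild-type embryo 3 (Cdkn1c, Ccnb1 and Mycn). With the replicate number as a block it was 0, and Cdkn1c had a log2 fold change of -0.40 (edgeR FDR 0.104); the block changed no other call of the 44. Deviations of same-numbered embryos correlated at 0.109, 0.212, 0.0863 and 0.507 for numbers 1 to 4. For no number was this the highest correlation of both its wild-type and its knockout embryo, so the numbers were not taken as pairs. None of the 44 genes passed 1.5-fold with an unadjusted p under 0.05 in any of the 15 alternatives. Without wild-type embryo 3, where 3 of the 44 passed the FDR threshold, 490 of all genes fitted passed it (3.46%).

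The median log2 fold change with limma was 0.0144 for the 44 genes, -0.0288 for the G1/S genes and 0.0181 for the G2/M genes, where the median of all genes was 0.0414; leaving out 1 embryo gave -0.1517 to -0.0589 for G1/S (the lowest without wild-type embryo 3, and -0.0649 without wild-type embryo 1), -0.078 to -0.0224 for G2/M (-0.0764 without knockout embryo 3), -0.0585 to -0.0224 for all 44 genes and 0.0397 to 0.2102 for the inhibitors and pocket proteins. Without knockout embryo 2, the library with the other molecule label, the log2 fold change of Bub1 was -0.0323, of Bub1b 0.0961, of E2f1 0.0996, of Ccnd2 0.0495, of Top2a 0.0377 and of Myc -0.0702. The sign turned in no alternative for 34 of 44 genes, and the others had log2 fold changes of at most 0.10 in size. With limma the value was 0.0346 for Mcm2, 0.0549 for Mcm3, 0.0471 for Top2a and 0.0462 for Cdc20. With no filter it was 0.0138 for Mcm3, 0.0056 for Top2a and 0.0042 for Cdc20. With the Y-linked covariate it was -0.0575 for Ccnd2, 0.0096 for Mcm3, -0.0029 for Bub1b and 0.0098 for Cdc20. Mcm3 was at 0.0065 with DESeq2 size factors and 0.0066 with the DESeq2 Wald test. Leaving out 1 embryo gave -0.034 to 0.0495 for Ccnd2, -0.024 to 0.0242 for Mcm3, -0.2473 to 0.0214 for Pcna, -0.0554 to 0.0377 for Top2a, -0.0401 to 0.0382 for Cdc20, -0.0542 to 0.2903 for Cdkn1a, -0.0553 to 0.336 for Cdkn2c and -0.0702 to 0.0895 for Myc. The cause of these changes was not tested. Cdkn2c had 17 to 36 reads per library.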

Other observations

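Genes within 300 kb of Cdkn1c, a region known for imprinting, were looked up after the values of Cdkn1c had been seen. Among 9 measured neighbours, 8 were fitted, and 2 were lower and 6 higher in the knockout, with 0 past FDR 0.05. Phlda2, an imprinted neighbour, was at 11.0 to 29.4 CPM in wild-type and 8.76 to 32.4 CPM in knockout embryos. Kcnq1, a gene of few reads, was at 0.55 to 0.96 CPM in wild-type and 1.005 to 1.175 CPM in knockout embryos (log2 fold change 0.49, edgeR FDR 0.326). Osbpl5 was at 7.01 to 9.14 CPM in wild-type and 10.2 to 10.9 CPM in knockout embryos, with the smallest p-value of the neighbours (log2 fold change 0.40, edgeR FDR 0.142).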
